A study of Saccharomyces cerevisiae with 14 samples.

Results

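The genes described here are 10 yeast genes for glycerol synthesis, glycerol use, glycerol transport and the osmotic stress kinase Hog1. They were taken by symbol from the array annotation, and all 10 of the 10 listed were found, each with 1 feature, among 5548 named genes in all. They are GPD1 and GPD2, GPP1 and GPP2, GUT1 and GUT2, DAK1, STL1, FPS1 and HOG1. The set was chosen by measured values: GPD1 and GUT2 were among the largest rises in the null strain against FHT-WT1. Every value from that comparison is therefore a description and carries no test.

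Yeast makes glycerol from a glycolytic intermediate in 2 steps: glycerol 3-phosphate dehydrogenase (Gpd1, Gpd2) reduces it with NADH, and glycerol 3-phosphatase (Gpp1, Gpp2) releases glycerol. Glycerol is the main compatible solute of osmotically stressed yeast, and its synthesis also reoxidises cytosolic NADH. Use of glycerol runs through glycerol kinase (Gut1) and the mitochondrial FAD-linked glycerol 3-phosphate dehydrogenase (Gut2). The Hog1 kinase is activated by osmotic stress and drives GPD1, GPP2 and STL1 transcription, while Fps1 lets glycerol leave the cell and Stl1 takes it up with protons.

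The series addressed how transcription across the genome depends on the domains of TAF1, a scaffold of the TFIID complex that helps RNA polymerase II start at promoters. Its 14 two-colour arrays of PCR products form 7 groups of 2: a strain labelled null (yjdi381), 4 TAF1 construct strains labelled DT1 (yjdi355), TF1 (yjdi357), HT4 (yjdi359) and PB1 (yjdi361), FHT-WT1 (yjdi353), and a homotypic pair of the reference strain yjdi363 against itself. Each strain was hybridised against yjdi363 with a dye swap: Cy5 marked the strain on array 1, and Cy3 marked it on array 2. All cultures, the reference included, were grown without leucine in 3% raffinose to an OD600 of about 0.7, given 2% galactose for 30 min at 25 °C to induce TAF1, and held at 37 °C for 45 min. The labels do not explain the construct codes or the host's own TAF1 allele, and no domain is assigned to a code here. Nothing in them ties the 2 arrays of a strain to separate cultures. The p-values thus describe spread among arrays, and that spread can be technical.

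Every value below is a log2 ratio of a strain to the reference, centred on the median of the named genes on its array, unless another quantity is named. Means carry the SD of 2 arrays, and fitted differences carry the SE from limma. The direction was taken from TAF1, which lay at -3.52 and -3.46 on the null strain arrays (an 11.2-fold lower level than in the reference), against -0.06 and -0.63 on the FHT-WT1 arrays. TAF1 averaged -0.54 ± 0.33 in DT1, -0.49 ± 0.48 in TF1, -0.66 ± 0.56 in HT4 and -0.54 ± 0.15 in PB1. Because TAF1 set the direction, its own fall is no result, and every higher or lower value rests on that choice. Each array held 6935 to 6971 features with a value, and the number of arrays limits the precision. The 2 arrays of a strain correlated across genes with r from -0.0059 (FHT-WT1) to 0.662, with a median of 0.627. The homotypic pair shows how far a gene lies from 0 without any strain difference. Its orientation is not labelled, so it was left out of the main model and entered only in alternatives, with both signs of its array 2.

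**Figure D1:**
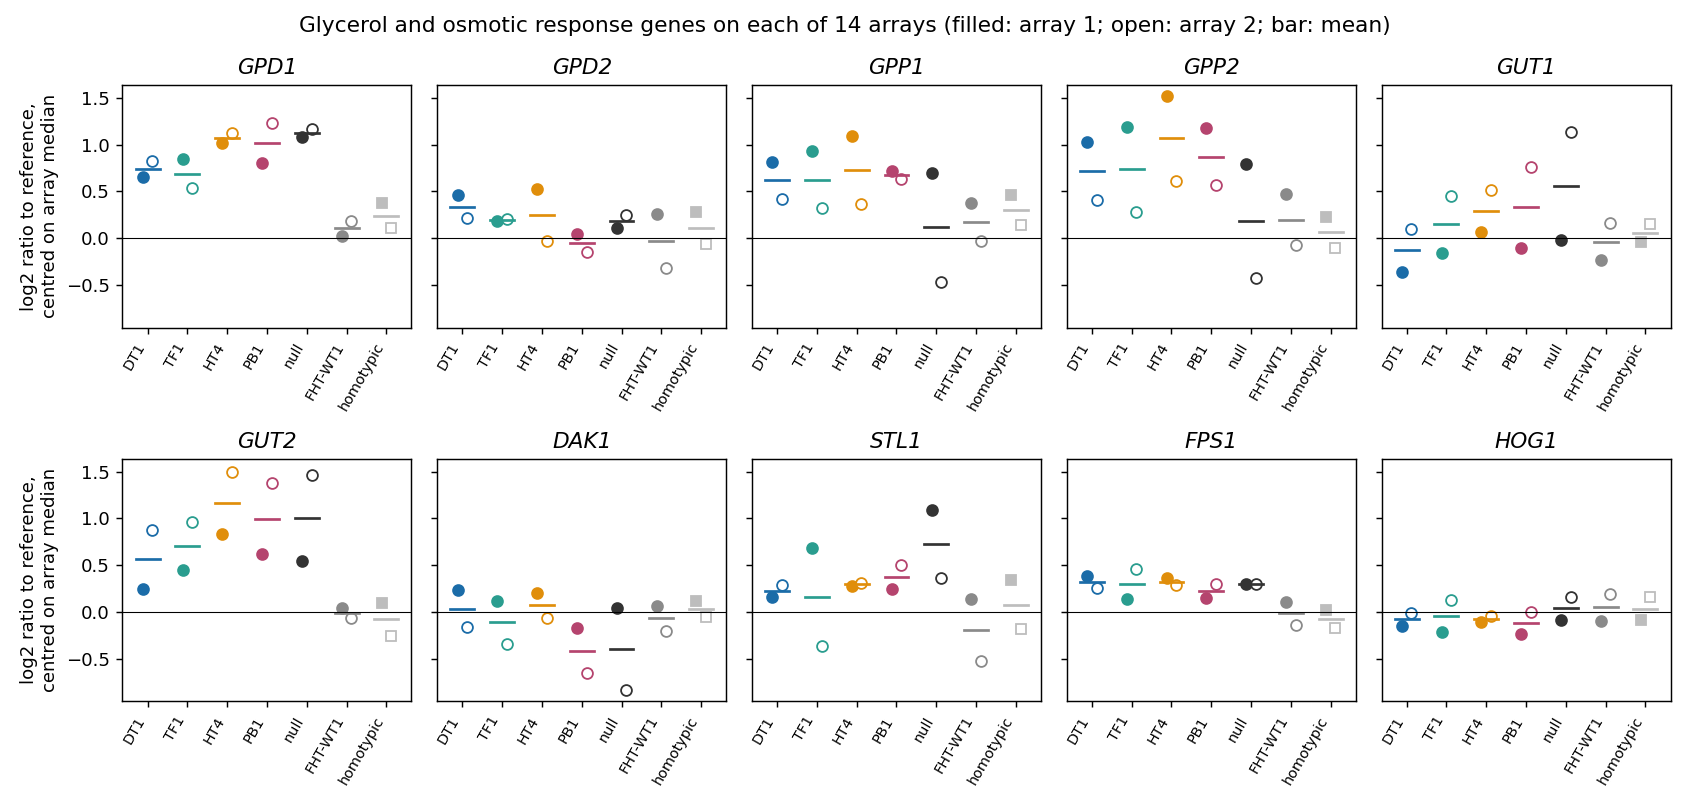
Centred log2 ratio to the reference (y axis) of each of the 10 genes in each group (x axis), with a filled point for array 1, an open point for array 2, squares for the homotypic pair and a bar for the mean. GPD1 and GUT2 lay above both FHT-WT1 arrays in the null strain and in each construct strain, while the 2 arrays of GPP1, GPP2, GUT1 and DAK1 stood apart within most strains.

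GPD1 encodes the glycerol 3-phosphate dehydrogenase that responds to osmotic stress. It was higher in the null strain and in all 4 construct strains than in FHT-WT1, without overlap between arrays. Its values were 1.08 and 1.17 in the null strain, 0.65 and 0.82 in DT1, 0.85 and 0.54 in TF1, 1.02 and 1.12 in HT4, and 0.81 and 1.23 in PB1. FHT-WT1 gave 0.03 and 0.19, and the homotypic pair 0.38 and 0.10, so the lowest array of any construct strain lay above the highest homotypic array. In order of means the strains ran null, HT4, PB1, DT1, TF1, and the arrays of neighbours in this order overlapped. GPD1 in the null strain lay 1.02 ± 0.15 above FHT-WT1, a 2.02-fold difference and the 10th highest of 5536 genes, as the choice of the set would have it.

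The stated choice used the null and FHT-WT1 arrays, and in the construct strains GPD1 was tested against the reference, although results of those strains were also known when the set was drawn up. It rose by 0.74 ± 0.11 in DT1 (1.67-fold), 0.69 ± 0.11 in TF1 (1.62-fold), 1.07 ± 0.11 in HT4 (2.10-fold) and 1.02 ± 0.11 in PB1 (2.03-fold). The limma, Benjamini-Hochberg adjusted p was 0.00133 in DT1, 0.000939 in TF1, 6.02e-05 in HT4 and 9.35e-05 in PB1. The HT4 and PB1 calls held in all 22 alternative settings, many of which change only the SE and not the estimate. The DT1 and TF1 calls were lost when the homotypic pair was subtracted (0.50 and 0.45, limma adjusted p = 0.0732 and 0.0761). DT1 also lost its call without DT1 array 2 (adjusted p = 0.0542), and TF1 without TF1 array 1 (adjusted p = 0.0677).

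GPD2 encodes the isoenzyme whose expression follows redox balance more than osmotic stress. It did not pass the test in any construct strain. Its means were 0.34 ± 0.18 in DT1, 0.19 ± 0.02 in TF1, 0.25 ± 0.39 in HT4 and -0.05 ± 0.14 in PB1, against -0.03 ± 0.41 in FHT-WT1 and 0.11 ± 0.24 in the homotypic pair (SD, n = 2 each). The limma adjusted p was lowest in DT1, at 0.0644, and passed there in 5 of 22 alternatives (lowest 0.0432). The null strain averaged 0.18 ± 0.09, and GPD2 lay 0.21 ± 0.17 above FHT-WT1 there. All neighbouring groups in the order of GPD2 means overlapped.

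GPP1 and GPP2 encode the paralogous glycerol 3-phosphatases, of which GPP2 is the osmotically induced one. Both were higher in the 4 construct strains than in the reference, and neither stood out in the null strain. Both arrays lay above both FHT-WT1 arrays only in HT4 and PB1 for GPP2, and only in DT1 and PB1 for GPP1. Compared within the same array number, both genes lay above FHT-WT1 on each array in all 4 construct strains. GPP2 read 1.03 and 0.41 in DT1, 1.19 and 0.28 in TF1, 1.52 and 0.61 in HT4, and 1.18 and 0.57 in PB1. In the null strain it lay at 0.80 and -0.42, against 0.47 and -0.08 in FHT-WT1 and 0.23 and -0.11 in the homotypic pair. Array 1 was the higher one in every group. The mean of the null strain (0.19) was within 0.01 of that of FHT-WT1 (0.20).

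Against the reference GPP2 rose by 0.72 ± 0.11 in DT1 (1.65-fold), 0.74 ± 0.11 in TF1 (1.67-fold), 1.07 ± 0.11 in HT4 (2.10-fold) and 0.87 ± 0.11 in PB1 (1.83-fold). The limma adjusted p was 0.00202 in DT1, 0.000914 in TF1, 7.34e-05 in HT4 and 0.000289 in PB1. The HT4 call held in all 22 alternatives, and GPP2 was the 1 member still called in each construct strain after subtraction of the homotypic pair as deposited. With the sign of homotypic array 2 reversed, DT1 and TF1 lost the call (limma adjusted p = 0.149 and 0.103). With no term for dye orientation it was not called in DT1, TF1 or PB1 (limma adjusted p = 0.207, 0.158 and 0.0869). DT1 also lost the call without DT1 array 2, where the value was 0.61.

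GPP1 rose by 0.62 ± 0.14 in DT1, 0.63 ± 0.14 in TF1, 0.73 ± 0.14 in HT4 and 0.67 ± 0.14 in PB1 (limma adjusted p = 0.0111, 0.00747, 0.00246 and 0.00421). Its arrays read 0.82 and 0.42 in DT1, 0.93 and 0.32 in TF1, 1.09 and 0.36 in HT4, and 0.72 and 0.63 in PB1. The null strain gave 0.70 and -0.46, FHT-WT1 0.38 and -0.03, and the homotypic pair 0.46 and 0.14. GPP1 averaged 0.30 in the homotypic pair, and after its subtraction as deposited GPP1 was called in none of the 4 strains (0.32 to 0.43, lowest limma adjusted p = 0.132). With no dye orientation term GPP1 was not called in DT1, TF1, HT4 or PB1 either (limma adjusted p = 0.18, 0.136, 0.0732 and 0.0967). The call was also lost without either own array in DT1 and TF1 (adjusted p of 0.0983 to 0.204), without HT4 array 1 (0.0796) and without PB1 array 2 (0.157). Across the 12 strain arrays, which share the reference and the dye orientations, GPP1 and GPP2 followed each other with r = 0.96. PCR products of such close paralogs can bind each other's transcripts, so the arrays may not separate the 2 genes.

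GPD1 was chosen for its rise in the null strain, so its contrast with the phosphatase genes there is a description only. Relative to FHT-WT1 the null strain was higher by 1.02 ± 0.15 for GPD1, and differed by -0.05 ± 0.20 for GPP1 and -0.01 ± 0.16 for GPP2. The construct strains lay 0.59 to 0.97 above FHT-WT1 for GPD1, 0.44 to 0.55 for GPP1 and 0.52 to 0.87 for GPP2. Within array 1 alone the null strain lay 0.32 above FHT-WT1 for GPP1 and 0.33 for GPP2, and within array 2 it lay at -0.43 and -0.34. The null differences of both phosphatase genes thus turned sign between array 1 and array 2. All these differences share the FHT-WT1 arrays and were not tested.

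**Figure D2:**
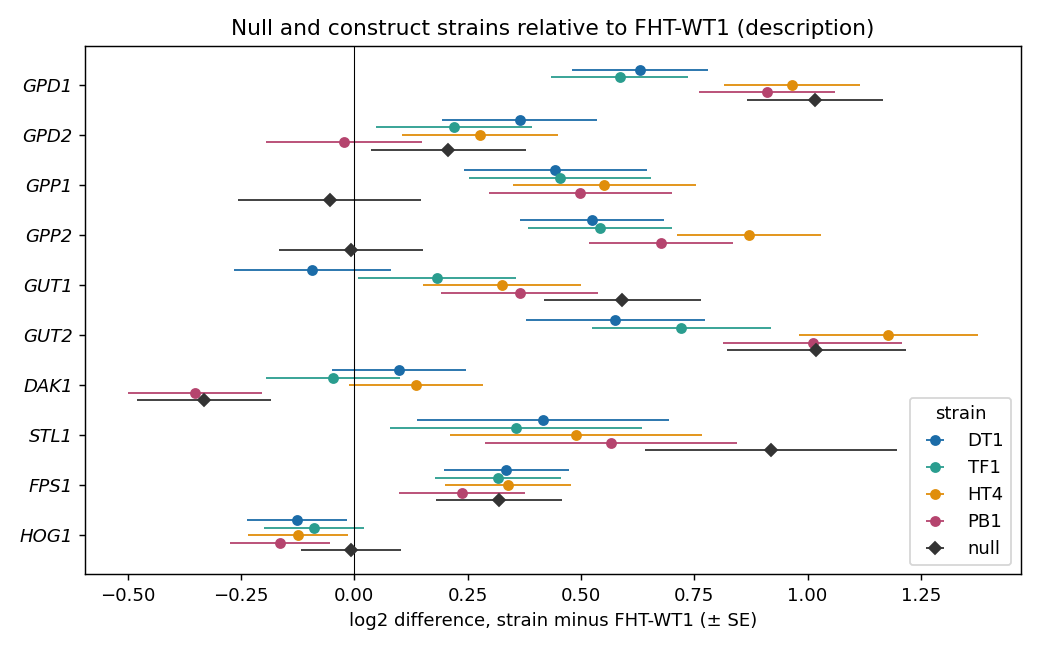
Log2 difference of each strain from FHT-WT1 (x axis, fitted difference ± SE) for the 10 genes (y axis), with circles for the construct strains and a diamond for the null strain. The null strain lay with the construct strains for GPD1, GUT2 and FPS1, and near 0 for GPP1 (-0.05) and GPP2 (-0.01), where the construct strains lay at 0.44 or higher.

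GUT2, the mitochondrial glycerol 3-phosphate dehydrogenase of glycerol use and of the glycerol 3-phosphate shuttle, was likewise higher in the null and construct strains than in FHT-WT1. It read 0.55 and 1.46 in the null strain, 0.24 and 0.88 in DT1, 0.45 and 0.96 in TF1, 0.83 and 1.497 in HT4, and 0.62 and 1.38 in PB1. FHT-WT1 gave 0.04 and -0.07 and the homotypic pair, as deposited, 0.10 and -0.26, below every array of the 5 other strains. With its sign reversed, homotypic array 2 would lie above DT1 array 1. The means ran HT4, null, PB1, TF1, DT1, with overlapping neighbours, and only the step between DT1 and FHT-WT1 showed no overlap. The null strain lay 1.02 ± 0.20 above FHT-WT1 (2.03-fold), the 9th highest of 5536 genes, and HT4 lay 1.18 ± 0.20 above it, the 17th highest in its own comparison.

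Against the reference GUT2 rose by 0.56 ± 0.14 in DT1 (1.48-fold), 0.71 ± 0.14 in TF1 (1.63-fold), 1.16 ± 0.14 in HT4 (2.24-fold) and 0.996 ± 0.14 in PB1 (1.995-fold). The limma adjusted p was 0.0155 in DT1, 0.00366 in TF1, 0.000135 in HT4 and 0.000481 in PB1. In HT4 and PB1 the call held in all 22 alternatives, the subtraction of the homotypic pair included (1.24 and 1.07, limma adjusted p = 0.00498 and 0.0139). DT1 and TF1 lost it there (limma adjusted p = 0.137 and 0.0577) and without either of their own arrays. They also lost it with no dye orientation term (limma adjusted p = 0.213 and 0.0962).

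GUT1, the glycerol kinase that acts before Gut2, passed the test in no construct strain. It read -0.02 and 1.13 in the null strain, -0.36 and 0.10 in DT1, -0.16 and 0.46 in TF1, 0.06 and 0.52 in HT4, and -0.10 and 0.76 in PB1, against -0.23 and 0.16 in FHT-WT1 and -0.05 and 0.15 in the homotypic pair. Array 2 was higher than array 1 in every group. The limma adjusted p against the reference was 0.0526 in PB1 (0.33 ± 0.12) and 0.0807 in HT4 (0.29 ± 0.12). GUT1 was called in PB1 in 5 of 22 alternatives (lowest adjusted p = 0.0177) and in HT4 in 2 (0.0292). The null mean lay 0.59 ± 0.17 above that of FHT-WT1, with a gap of 0.21 within array 1 and 0.97 within array 2.

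DAK1, a dihydroxyacetone kinase of the alternative route of glycerol use, was the 1 member that fell. In PB1 it lay at -0.18 and -0.66, and against the reference it fell by 0.42 ± 0.10 (limma adjusted p = 0.00984). It averaged 0.03 ± 0.28 in DT1, -0.11 ± 0.32 in TF1 and 0.07 ± 0.19 in HT4, none of which passed the test. The null strain gave 0.05 and -0.84, against 0.07 and -0.20 in FHT-WT1 and 0.12 and -0.06 in the homotypic pair. The PB1 call was lost without either PB1 array (limma adjusted p = 0.0888 and 0.102), with arrays as deposited (-0.30, adjusted p = 0.248), with no dye orientation term (0.178) and after subtraction of the homotypic pair with either sign (0.0531 and 0.062).

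Of the transport genes, FPS1 showed small shifts. The channel gene read 0.30 and 0.30 in the null strain, 0.38 and 0.26 in DT1, 0.14 and 0.46 in TF1, 0.36 and 0.29 in HT4, and 0.15 and 0.30 in PB1. FHT-WT1 gave 0.10 and -0.14 and the homotypic pair, as deposited, 0.02 and -0.17, below all arrays of the other strains. With its sign reversed, homotypic array 2 would lie above array 1 of TF1 and of PB1. FPS1 rose by 0.32 ± 0.10 in DT1, 0.30 ± 0.10 in TF1 and 0.32 ± 0.10 in HT4 (limma adjusted p = 0.0372, 0.0372 and 0.0225), about 1.25-fold in DT1. PB1, at 0.22 ± 0.10, did not pass (limma adjusted p = 0.092). The 3 calls were lost after subtraction of the homotypic pair (limma adjusted p = 0.0933, 0.0827 and 0.0521) and with arrays as deposited (limma adjusted p = 0.556, 0.153 and 0.545). They were also lost with no dye orientation term (0.0952, 0.0847 and 0.0531) and without either array of the strain concerned. In TF1 the value was 0.49 without array 1 and 0.11 without array 2.

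By mean and on array 1, though not on array 2, STL1, the glycerol proton symporter gene, was highest in the null strain. Its values there were 1.09 and 0.36, and the mean lay 0.92 ± 0.28 above that of FHT-WT1, the 16th highest of all genes in that comparison. The construct strains gave 0.16 and 0.28 in DT1, 0.69 and -0.37 in TF1, 0.28 and 0.31 in HT4, and 0.25 and 0.50 in PB1. FHT-WT1 gave 0.14 and -0.53, and the homotypic pair 0.34 and -0.18. The 2 arrays stood far apart in TF1, null and FHT-WT1, and the SE of STL1 was the largest of the 10 genes (0.20). No construct strain passed the test against the reference (limma adjusted p between 0.15 and 0.556). With arrays as deposited STL1 was called in PB1 (0.49, limma adjusted p = 0.0374).

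HOG1 RNA stayed near the reference everywhere. Its means were 0.04 ± 0.17 in the null strain, -0.08 ± 0.10 in DT1, -0.04 ± 0.24 in TF1, -0.08 ± 0.05 in HT4 and -0.12 ± 0.16 in PB1, against 0.05 ± 0.20 in FHT-WT1 and 0.03 ± 0.17 in the homotypic pair. The limma adjusted p against the reference lay between 0.258 and 0.724. The kinase is regulated by phosphorylation, which arrays of RNA do not measure.

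**Figure D3:**
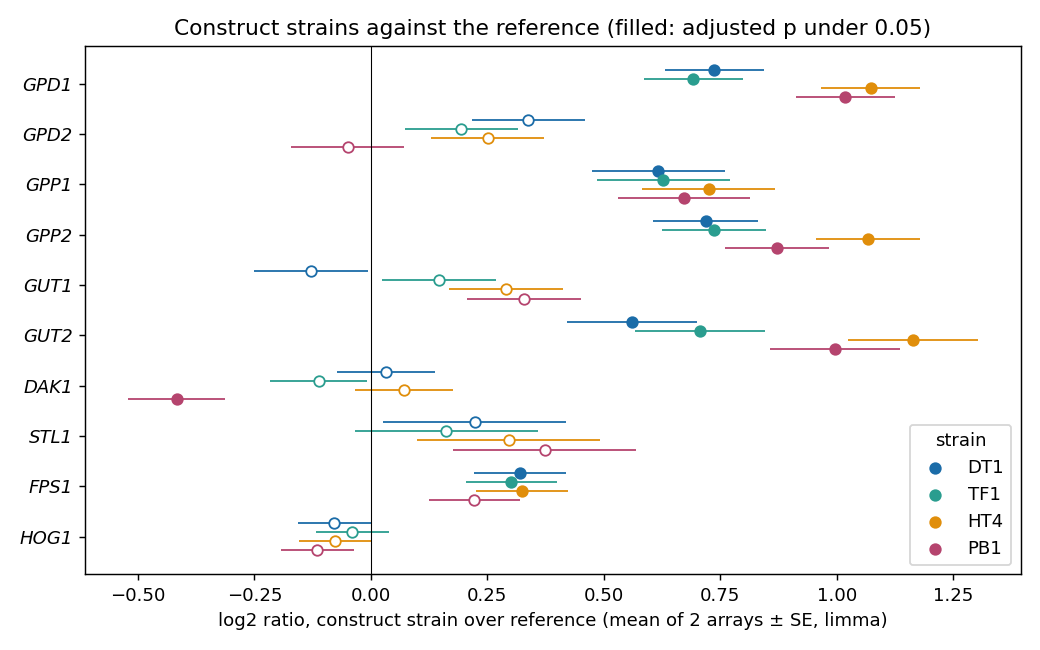
Log2 ratio of each construct strain to the reference (x axis, mean of 2 arrays ± SE from limma) for the 10 genes (y axis), filled where the adjusted p was under 0.05. GPD1, GPP1, GPP2 and GUT2 were filled in all 4 strains, FPS1 in 3 and DAK1, on the lower side, in PB1.

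Over the whole set, 5 of 10 members passed the test in each construct strain, and 6 of 10 passed in at least 1 (57.9% of all genes). Of all 5536 genes, 23.9% passed in DT1, 32.9% in TF1, 40.6% in HT4 and 40.5% in PB1. In DT1 all 5 rose, as did 9.84% of all genes, and none fell (background 14.1%). In TF1 5 rose (background 15%) and none fell (17.9%), and in HT4 5 rose (19.1%) and none fell (21.5%). In PB1 4 rose (18.9%) and 1 fell (21.5%). Leaving out 1 array left no member called in DT1 (without DT1 array 2; 2 without DT1 array 1). In TF1 1 was called without TF1 array 1 and 2 without TF1 array 2, in HT4 3 without HT4 array 1, and in PB1 3 without PB1 array 2. With no dye orientation term 1, 1, 3 and 2 members were called in DT1, TF1, HT4 and PB1. GPD1, GPP1, GPP2 and GUT2 rose in each of the 4 construct strains, as did 5.36% of all genes. Together with FPS1 they had both arrays above 0 in all 4, which 18.2% of all genes had. The median of the 10 members was 0.33 in DT1, 0.25 in TF1, 0.31 in HT4 and 0.35 in PB1, against medians of all genes between 0.00 and 0.01. Subtraction of the homotypic pair as deposited left 1 member called in DT1 and TF1 (8.35% and 15.5% of all genes) and 3 in HT4 and PB1 (24.7% and 20.8%). Those 3 were GPD1, GPP2 and GUT2.

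Centring bears on these shares. As deposited the median of all genes was -0.10 in DT1, 0.09 in TF1, -0.14 in HT4 and 0.12 in PB1. With centred arrays 41.2% of all calls were higher in DT1, 47.1% in HT4 and 46.8% in PB1, against 13.3%, 19.4% and 69.7% as deposited. GPD1, GPP1 and GPP2 rose in all 4 construct strains as deposited too, and GUT2 in all but DT1 (limma adjusted p = 0.0851).

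In the comparison that chose the set, 4 of 10 members, GPD1, GUT2, STL1 and FPS1, had both null arrays above both FHT-WT1 arrays, which 18.2% of all genes did, and none had both below (21.1% of all genes). The same held for 5 members in DT1 (background 19.6%), 3 in TF1 (19.4%), 5 in HT4 (21.7%) and 6 in PB1 (19.6%). None lay below, where the backgrounds were 22.5% in DT1, 21.7% in TF1, 24.6% in HT4 and 23% in PB1. All these comparisons share the 2 FHT-WT1 arrays, which also served in choosing GPD1 and GUT2, so they are not separate evidence. The null arrays too served in the choice of GPD1 and GUT2, so values relative to them are a description from which nothing is read. Relative to the null strain, GPD1 had both arrays lower in DT1 (background 14.4%) and in TF1 (10.9%), by 0.39 ± 0.15 and 0.43 ± 0.15. In HT4 and PB1 it differed from null by -0.05 ± 0.15 and -0.10 ± 0.15. STL1 was the other member below null in DT1 and the one below it in HT4 (13.5%), and GPD2 and FPS1 were those in PB1 (14.8%). No member had both arrays above null, as 14.1% of all genes did in DT1, 10.1% in TF1, 11.9% in HT4 and 13.6% in PB1. That count also sets array 1 against array 2. Within each array number GPP1 and GPP2 lay above null in all 4 construct strains. Their fitted differences from null were 0.50 to 0.61 and 0.53 to 0.88. Of the 10 members, 5 lay above null by fitted difference in DT1, 4 in TF1, 6 in HT4 and 2 in PB1. Of all genes, 48.3% to 51.3% did.

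To ask whether the TAF1 constructs differed from each other, an F test over DT1, TF1, HT4 and PB1 was fitted to every gene. It called 12 genes (0.217%) and no member (685 genes or 12.4%, and 2 members, GUT2 and DAK1, at an unadjusted p under 0.05). GUT2 ranged over 0.60 between DT1 and HT4 (limma F test, adjusted p = 0.389), DAK1 over 0.49 between PB1 and HT4 (adjusted p = 0.352), and GPD1 over 0.38 between TF1 and HT4 (adjusted p = 0.425). The 95% interval of HT4 minus DT1, not adjusted over the 6 pairs of strains, ran from 0.17 to 1.04 for GUT2, 0.0042 to 0.67 for GPD1 and -0.34 to 0.55 for GPP1. GPP1 had the highest F test p of the set (adjusted p = 0.985), and its interval holds differences nearly as large as its rise of 0.62 in DT1.

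Several members moved with the array number, and so with dye orientation. The sample titles of arrays 1 and arrays 2 also begin with different numbers, which the labels do not explain. Dye cannot be told apart from any other difference between these sets of arrays. GPP1, GPP2 and DAK1 were higher on array 1 in all 6 strains, as were 16.2% of all genes, by 0.57, 0.80 and 0.46 on average. GUT1 and HOG1 were lower on array 1 in all 6 strains, as were 15% of all genes, by 0.66 and 0.22 on average (-0.66 and -0.22 for array 1 minus array 2). GUT2 was lower on array 1 in 5 strains and higher by 0.11 in FHT-WT1. Within each of 5 genes the null strain had the largest gap of the 6 strains: GPP1 (1.16), GPP2 (1.22), GUT1 (-1.15), GUT2 (-0.92) and DAK1 (0.88). STL1 had its largest gap in TF1 (1.05). GPD1 was likewise lower on array 1 in 5 strains and higher in TF1, with gaps between -0.42 (PB1) and 0.31 (TF1). The fitted orientation term carries the part of such a gap that strains share, and the part of the remainder in the null strain was not tested.

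**Figure D4:**
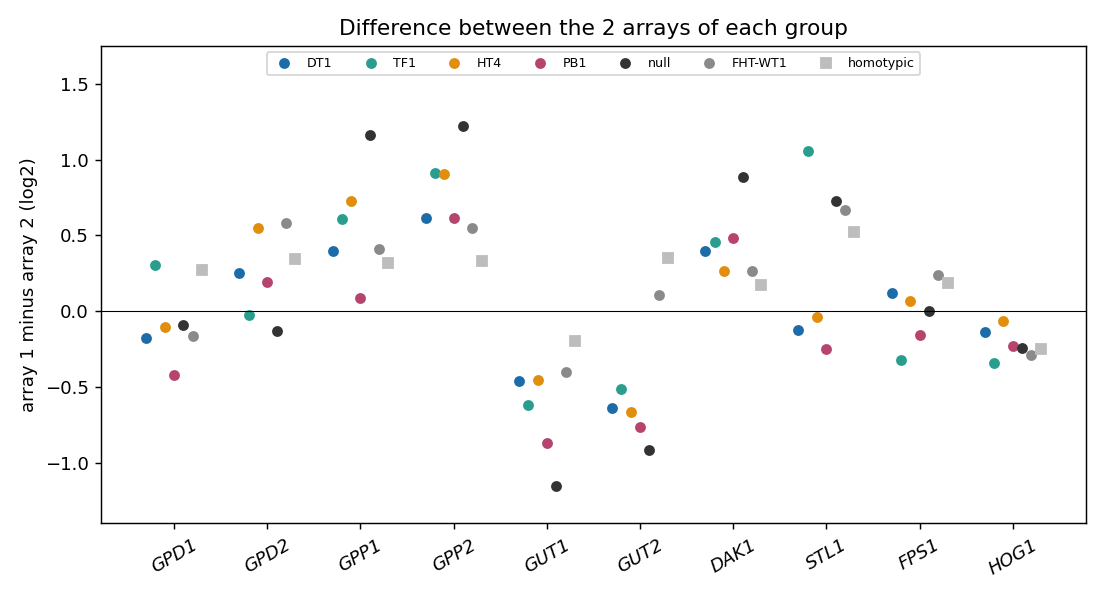
Array 1 minus array 2 in log2 units (y axis) for the 10 genes (x axis), with a circle for each strain and a square for the homotypic pair. GPP1, GPP2 and DAK1 lay above 0 and GUT1 and HOG1 below 0 in all 6 strains, with the null strain farthest from 0 for GPP1, GPP2, GUT1, GUT2 and DAK1.

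Among 15 osmotic stress target genes outside the set, many of them also general stress genes, 8 rose in DT1, 11 in TF1, 13 in HT4 and 9 in PB1, and none fell (limma; backgrounds of 9.84%, 15%, 19.1% and 18.9% higher). HSP12 and ENA1 were called in no construct strain, and SIP18 only in HT4. The genes described next, CTT1, GRE2 and MSC1, are those with the smallest adjusted p in the list. CTT1, the cytosolic catalase gene, read 0.65 and 0.63 in DT1, 1.26 and 0.98 in TF1, 1.74 and 1.42 in HT4, and 0.74 and 1.20 in PB1, against 0.22 and 0.31 in FHT-WT1. Its rise against the reference was 1.58 ± 0.12 in HT4 (limma adjusted p = 2.1e-05), the largest of the list, and 0.64 ± 0.12 in DT1 (limma adjusted p = 0.00506). GRE2, a methylglyoxal reductase gene, rose by 0.58 ± 0.08 in DT1, 0.66 ± 0.08 in TF1, 0.93 ± 0.08 in HT4 and 0.26 ± 0.08 in PB1. MSC1 rose by 0.51, 0.67, 1.03 and 0.36 in the same order. In FHT-WT1 both averaged 0.16, with arrays at 0.41 and -0.10 for GRE2 and 0.40 and -0.08 for MSC1. Their arrays stood apart in the construct strains too. GRE2 read 1.27 and 0.58 in HT4 and 0.43 and 0.08 in PB1, and MSC1 1.35 and 0.71 in HT4 and 0.68 and 0.04 in PB1. The homotypic means were 0.25 for CTT1, 0.20 for GRE2 and 0.00 for MSC1. The null minus FHT-WT1 median of the list was 0.26, with 12 of 15 genes above 0. Values of the companion genes are relative to the median of all genes, whose shift as deposited is given above, and calls on them were made with centred arrays only.

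The 19 genes of Hog1 signalling, which include kinases and sensors above Hog1, its phosphatases and a kinase below it, moved in both directions. In DT1 1 rose and 3 fell (9.84% and 14.1% of all genes), in TF1 3 and 2 (15% and 17.9%), in HT4 3 and 5 (19.1% and 21.5%), and in PB1 3 and 3 (18.9% and 21.5%). The 1 that rose in DT1 was PTP2, a phosphatase of Hog1 (0.47 ± 0.11). PTP2 also rose in TF1 (0.47), HT4 (0.33) and PB1 (0.35), with 0.23 in FHT-WT1. PTC1, another such phosphatase gene, was among the 3 that fell in DT1 (-0.32 ± 0.08). PTC1 also fell in HT4 (-0.37) and PB1 (-0.28), and was not called in TF1 (-0.21), with 0.02 in FHT-WT1. Both genes were chosen after their values were seen. YPD1, the phosphorelay protein gene below the Sln1 osmosensor, fell by 0.30 ± 0.09 in DT1, 0.27 ± 0.09 in TF1, 0.46 ± 0.09 in HT4 and 0.27 ± 0.09 in PB1 (limma adjusted p = 0.0345, 0.0398, 0.00239 and 0.034). Its arrays stood apart, at -0.11 and -0.48 in DT1 and at 0.07 and -0.60 in PB1, so that PB1 array 1 was not below 0. PBS2, the kinase that activates Hog1, rose by 0.41 ± 0.10 in HT4 and 0.54 ± 0.10 in PB1 (limma adjusted p = 0.00912 and 0.00235), with -0.04 in DT1 and 0.16 in TF1. In FHT-WT1 PBS2 read -0.28 and 0.51. That array 2 lay above both HT4 arrays (0.34 and 0.49) and PB1 array 1 (0.41).

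Of 7 osmotic stress transcription factor genes, 2 rose in DT1 (background 9.84%), 2 rose (15%) and 1 fell (17.9%) in TF1, and 4 rose in HT4 (19.1%) and in PB1 (18.9%). MSN2, a zinc finger activator of stress genes, rose by 0.55 ± 0.10 in DT1, 0.60 ± 0.10 in TF1, 0.93 ± 0.10 in HT4 and 0.91 ± 0.10 in PB1, and averaged 0.48 in the null strain and 0.18 in FHT-WT1. SMP1, a MADS-box factor gene, rose in the 4 construct strains by 0.44 to 0.79, with 0.41 in FHT-WT1. MSN4, the paralog of MSN2, rose in HT4 and PB1 by 0.32 and 0.54 (limma adjusted p = 0.0435 and 0.00423), with -0.26 in DT1, -0.14 in TF1 and -0.39 in the null strain.

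The 14 other glycerol and glycerol 3-phosphate genes were split, with 1 higher and 2 lower in DT1, 2 and 2 in TF1, 3 and 3 in HT4, and 1 and 2 in PB1, shares close to or below those of all genes (9.84% and 14.1%, 15% and 17.9%, 19.1% and 21.5%, 18.9% and 21.5%). TPI1, the triose phosphate isomerase of glycolysis, rose in each construct strain, by 0.43 ± 0.08 in DT1 and 0.77 ± 0.08 in HT4 (limma adjusted p = 0.00433 and 6.69e-05). YPR1, an aldo-keto reductase gene, fell in each, by 0.47 ± 0.09 in DT1 and 0.67 ± 0.09 in PB1 (limma adjusted p = 0.00581 and 0.000475), as did AYR1, an acyl-dihydroxyacetone phosphate reductase gene, by 0.40 in DT1 to 0.51 in TF1. In FHT-WT1 these averaged 0.09 for TPI1, -0.05 for YPR1 and -0.05 for AYR1.

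**Figure D5:**
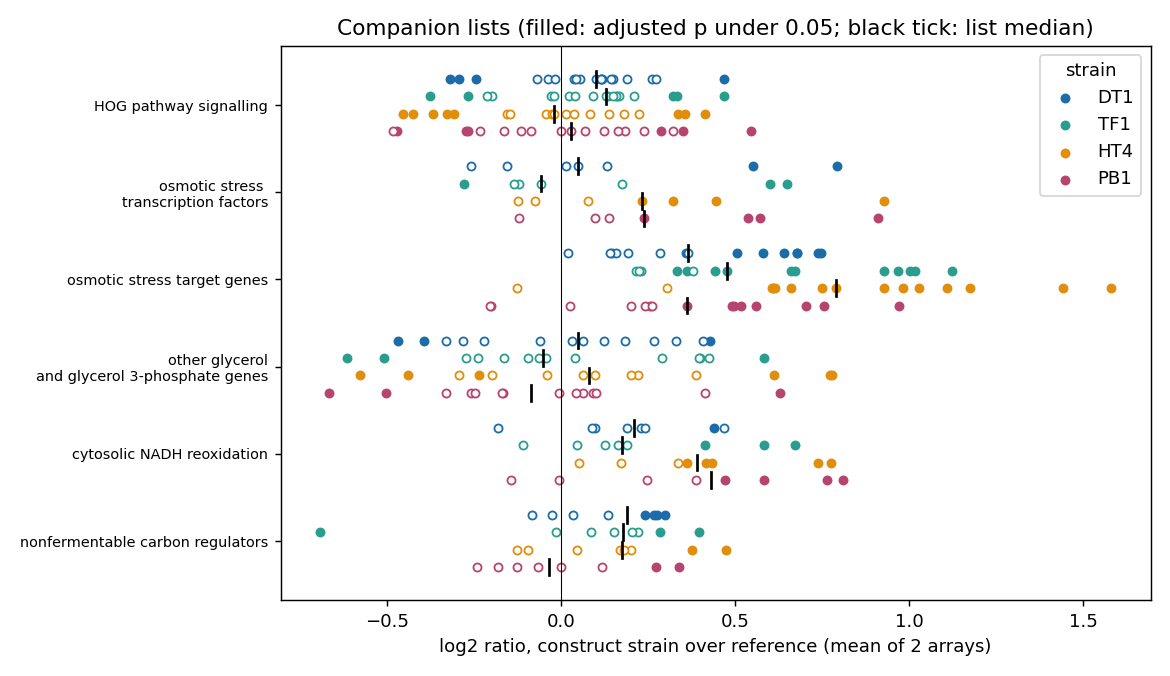
Log2 ratio of each construct strain to the reference (x axis) for the genes of 6 companion lists (y axis), filled where the limma adjusted p was under 0.05, with a black tick at each list's median. The osmotic stress target genes had medians of 0.37 in DT1, 0.48 in TF1, 0.79 in HT4 and 0.36 in PB1, while the signalling genes had medians between -0.02 and 0.13.

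The genes whose centred values were most like those of GPD1 across the 12 strain arrays were AIT1 (Pearson r = 0.948), VMR1 (0.879), MMS22 (0.871), ARN1 (0.871) and MEF1 (0.866). For GUT2 they were CCC2 (0.942), SLM2 (0.939), RRD1 (0.939), ELA1 (0.93) and FRE8 (0.923). GPD1 and GUT2 themselves correlated with r = 0.799 over these arrays. All 12 points share the reference strain and 2 dye orientations, and these genes were picked as the highest among all tested, so the values are a description.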

How the data were processed

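Each array's deposited column holds log2 values that compare its 2 channels. Per the labels and design text, the authors applied mode normalization in R to the dye swaps and then a correction by B. subtilis spiking controls. Scanner and image software are not given in the sources used here, nor is the sign convention, which was read from TAF1. Of 7056 features, 5579 carry a gene symbol, 5574 of which matched RefSeq gene IDs (R64, names only). Features of a gene were averaged (30 genes), arrays were centred on the median of named genes, and the 5536 genes with a value on all 12 strain arrays were tested. Using limma 3.58.1 in R 4.3.3, 1 model held 6 strain means and dye orientation (+0.5 or -0.5), with 5 residual and 5.84 prior degrees of freedom and Benjamini-Hochberg adjustment over all genes at 0.05, two-sided. "Called" means past that threshold. The members were tested in construct strains only, because the null and FHT-WT1 arrays served in choosing them. Those arrays were still in the model, so the construct tests depend on them through the shared variance and orientation term. The construct means were tested against 0, and the 4 constructs against each other by F test. The procedure was tested on simulated data.

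The named genes were TAF1, the 10 members, up to 3 called genes per companion list by smallest adjusted p, and the 5 most correlated genes for GPD1 and GUT2. One gene that this rule names is not reported here. The members and lists were chosen with earlier results of these data known. The deviations of same-numbered arrays from their strain means correlated between strains with r of 0.315 to 0.613 over 15 strain pairs, and the orientation term acts as that pairing. Alternatives covered scaling, centring, the orientation term, the homotypic pair, robust variance, the filter and leaving out each array. Subtracting the homotypic pair was chosen after seeing the data.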

Additional observations from a re-analysis of the deposited data

How the results depend on the processing

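Over the 40 results of a member in a construct strain, each under 22 alternatives, 779 of 880 values kept their direction and side of the threshold. Of the rest, 69 lost the call, 13 gained one (GUT1 in PB1 and HT4, GPD2 in DT1, STL1 in PB1) and 19 turned sign, all of the last at genes not called. Many alternatives could not move the estimate. Leaving out an array of another strain, dropping the orientation term, adding the homotypic arrays or using robust variance changes only the SE and adjusted p. A kept direction was fixed in advance there, so these counts overstate how far the directions were tried. As deposited the genes called were 586 in DT1, 700 in TF1, 1328 in HT4 and 1007 in PB1 (3 members in DT1) and 52 in the F test. Medians of the members were then 0.21 for HT4 minus FHT-WT1, -0.27 for DT1 minus null and -0.22 for HT4 minus null. Signs turned at DAK1 in DT1 (-0.072) and HT4 (-0.079), HOG1 in TF1 (0.045) and PB1 (0.0054), and GPD2 in PB1 (0.071). With no replicate block, that is no dye orientation term, 428, 759, 1234 and 1100 genes and 1, 1, 3 and 2 members were called in DT1, TF1, HT4 and PB1, and 2 genes in the F test; the cause was not tested. The F test called 6 genes after scaling by spread and, with all 14 arrays, 21 with homotypic array 2 as deposited and 12, the main count, with its sign reversed.

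After subtraction of the homotypic pair 462, 860, 1367 and 1154 genes and 1, 1, 3 and 3 members were called in the same order. With the sign of homotypic array 2 reversed these were 175, 419, 840 and 685 genes and 0, 0, 3 and 3 members. Signs then turned at DAK1 in DT1 (-0.054) and HT4 (-0.015), STL1 in DT1 (-0.039) and TF1 (-0.10), and HOG1 in DT1 (0.045), TF1 (0.084), HT4 (0.047) and PB1 (0.0085).

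Leaving out 1 array gave 181 to 1523 genes in DT1, 420 to 2009 in TF1, 872 to 2392 in HT4, 929 to 2393 in PB1 and 4 to 45 in the F test. Members called were 0 to 6 in DT1 (0 without DT1 array 2, 2 without DT1 array 1), 1 to 5 in TF1 (1 without TF1 array 1, 2 without array 2), 3 to 6 in HT4 (3 without HT4 array 1) and 3 to 6 in PB1 (3 without PB1 array 2). A lone array was assumed to vary like the others. Ranges were -0.0051 to 0.071 for DAK1 in DT1, -0.046 to 0.19 for DAK1 in HT4, -0.17 to 0.016 for HOG1 in HT4, -0.11 to 0.035 for HOG1 in TF1, -0.053 to 0.50 for STL1 in DT1 and -0.27 to 0.59 for STL1 in TF1. The median of the members ranged from 0.16 to 0.44 for null minus FHT-WT1, and for construct strains minus FHT-WT1 from 0.20 to 0.45 in DT1, 0.16 to 0.41 in TF1, 0.27 to 0.49 in HT4 and 0.21 to 0.64 in PB1. Minus null it ranged from -0.11 to 0.011 in DT1, -0.15 to 0.082 in TF1, -0.046 to 0.12 in HT4 and -0.17 to 0.0036 in PB1. Signal over background is not analysed here, so dim features could not be set apart.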

Other observations

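A list of 8 NADH dehydrogenase, alcohol and malate dehydrogenase and carrier genes is named for cytosolic NADH reoxidation in the plot of the companion lists, but it holds mitochondrial enzymes (NDI1, ADH3, MDH1) beside cytosolic ones. In DT1 1 rose, near the share of all genes (9.84%), against 3 in TF1 (15%), 5 in HT4 (19.1%) and 4 in PB1 (18.9%). None fell, where 14.1%, 17.9%, 21.5% and 21.5% of all genes did (limma). The 4 in PB1 include the mitochondrial NDI1 (0.58) and MDH1. ADH1, the main fermentative alcohol dehydrogenase gene, rose by 0.44 ± 0.11 in DT1, 0.67 ± 0.11 in TF1, 0.74 ± 0.11 in HT4 and 0.81 ± 0.11 in PB1, with 0.19 in FHT-WT1. NDE2, an external NADH dehydrogenase gene, rose in TF1 (0.41 ± 0.12) and HT4 (0.78 ± 0.12) and lay at -0.15 in PB1. MDH1, the mitochondrial malate dehydrogenase gene, rose in HT4 (0.42 ± 0.14) and PB1 (0.76 ± 0.14), with 0.23 in DT1 and 0.16 in TF1.

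Of 8 regulators of carbon use and phospholipid synthesis, named for nonfermentable carbon in that plot, 4 rose in DT1 (background 9.84%), 2 in TF1 (15%), 2 in HT4 (19.1%) and 2 in PB1 (18.9%), and 1 fell in TF1 (17.9%). The counts in TF1, HT4 and PB1 are near the background. Of the 4 in DT1, INO2 (0.30) and OPI1 (0.27) regulate inositol and phospholipid genes. These and NDI1 were named after their values were seen. RSF1, a regulator of growth on glycerol, rose by 0.27 ± 0.08 in DT1, 0.40 ± 0.08 in TF1, 0.38 ± 0.08 in HT4 and 0.27 ± 0.08 in PB1, and averaged 0.44 in the null strain and 0.18 in FHT-WT1. MIG1, a glucose repressor gene, rose in DT1, HT4 and PB1 by 0.24, 0.47 and 0.34, with a homotypic mean of 0.15. CAT8, an activator of gluconeogenic genes, fell by 0.69 ± 0.16 in TF1 (limma adjusted p = 0.00768), where it lay at -1.14 and -0.25 on the 2 arrays.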
